A study of Mus musculus with 8 samples.

Results

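The genes described here encode the aminoacyl-tRNA synthetases, the enzymes that join each amino acid to its tRNA. A list of 36 genes was searched by RefSeq accession among the probes of the arrays, and all 36 were found among 20972 named genes, with 44 probes in all. The list holds 20 cytosolic genes and 16 mitochondrial genes, whose symbols end in 2. Symbols are those of the gene table used for naming. The genes were listed by function and not by a measured value, although earlier results of these data were known when the list was made.

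Every synthetase is encoded in the nucleus. The cytosolic enzymes charge the tRNAs of cytosolic translation, whereas the mitochondrial enzymes are imported and charge the tRNAs with which mitochondria make their own respiratory chain subunits. Gars and Kars each encode both the cytosolic and the mitochondrial form of the glycine and lysine enzyme. PUS1 converts uridine to pseudouridine in tRNAs of both compartments, and in humans mutations of PUS1 and of YARS2, the mitochondrial tyrosine enzyme, both cause a myopathy with lactic acidosis and sideroblastic anaemia.

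The study set white gastrocnemius muscle of 4 mice homozygous for a Pus1 mutation against that of 4 wild type mice. Mutant and wild type mice shared the strain, C57BL/6J after 5 backcross generations, and the age, 14 to 16 weeks, and each group held 2 males and 2 females. The series calls the mutation a knockout, and the labels do not say which part of the gene it alters. Each of 4 arrays on 1 slide set 1 mutant beside a wild type partner of its own sex, labelled with Cy5 and Cy3, and the mutant had Cy5 on arrays 1 and 3 and Cy3 on arrays 2 and 4. The 4 resulting pairs are numbered 1 to 4, and pairs 1 and 2 are male. The labels name individual animals, so the spread below is between animals and not between repeat measurements. Each animal was read once, so that spread also holds differences between arrays and labellings.

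The share of spots well above background ran from 38.0% to 46.5% over the samples, which left 23098 probes to test, with 11893 named genes among them. The Pus1 probe had a normalized log2 intensity of 6.75, 6.91, 6.49 and 6.85 in mutants 1 to 4, against 8.06, 8.36, 8.15 and 8.29 in wild type animals 1 to 4. It was well above background in 0 of 4 mutants and in 4 of 4 wild type animals, which makes it at least 2.76-fold lower in mutants (log2 ratio −1.46, SE 0.10, limma adjusted p = 0.0786). That adjusted p ranged from 0.000146 with median centring to 0.955 without pair 4, and was under 0.05 also with no filter on dim probes (0.00549), with no dye term (0.0242), with no replicate block (0.0338), in separate channels (0.0124) and without pair 1 (0.0159) or pair 3 (0.00962). All 11 of 11 markers of fast muscle fibres were tested, with a summed linear intensity of 2286570 to 3560340 units in mutants and of 1913770 to 3069400 units in wild type animals. The sum was higher in the mutant of 2 of 4 pairs. Of these markers 9 had a fitted log2 ratio above 0 and 2 below, the lowest being that of Myh1 (−1.29, SE 0.25). Slow fibre markers summed to 44215 to 84095 units in mutants and to 81586 to 163034 units in wild type animals, and all 10 had a fitted ratio below 0. The muscle is a bulk sample, in which fewer cells of a type and less RNA per cell cannot be told apart.

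Of the 44 synthetase probes, 39 were tested, for 19 of 20 cytosolic and 14 of 16 mitochondrial genes. A probe was tested where it was well above background in at least 4 of 8 animals, and 38 of the 39 were so in all 8. The remaining genes were Yars, the cytosolic tyrosine enzyme, Mars2, for mitochondrial methionine, and Nars2, for mitochondrial asparagine. The Yars probe was well above background in 0 mutants and 1 wild type animal. The Mars2 probe was well above background in 2 mutants and 1 wild type animal, and the Nars2 probe in none of 8 animals. None of the 36 genes lies on chromosome 5, which carries Pus1.

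Whether loss of Pus1 goes with a change in the mRNAs of the charging enzymes was asked with a limma fit of the log2 ratios within arrays, mutant over wild type. No synthetase probe passed an adjusted p of 0.05 (0 of 39), and neither did any other probe on the arrays (0%). At an unadjusted p under 0.05, 1 of 39 synthetase probes passed, that of Dars, beside 3.35% of all tested probes. The ratios were small: the 95% interval of every one of the 33 tested genes lay within 1.5-fold in either direction, a width that 91.7% of all tested probes also met. The lowest bound of any of these intervals was −0.51 and the highest 0.51 on the log2 scale. The median standard error of a gene's log2 ratio was 0.10 in either set.

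**Figure D1:**
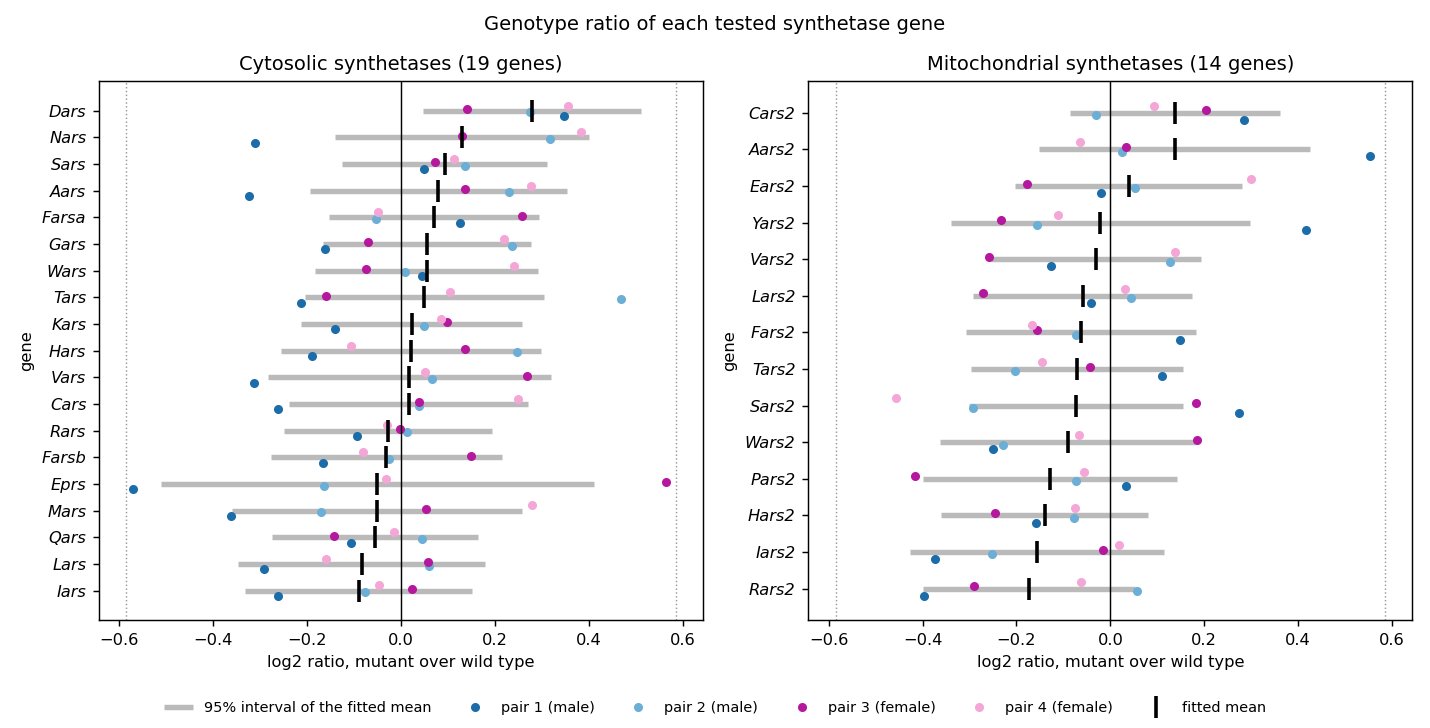
Log2 ratio of mutant over wild type (x axis) for each of the 19 cytosolic and 14 mitochondrial synthetase genes tested (y axis), with the 4 pairs as points, the fitted mean as a black tick and its 95% interval as a grey bar; dotted lines mark 1.5-fold. Of all 33 genes, Dars alone has an interval that leaves out 0, and most mitochondrial ticks lie left of 0.

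Among cytosolic genes the fitted log2 ratio was above 0 in 12 of 19, beside 50.4% of all tested probes, with a median of 0.02 and a range of −0.09 to 0.28. When arrays were centred on their median instead of by loess, the median of all tested probes moved to −0.06, the cytosolic median was −0.06 and 3 of 19 genes were above 0, so the sign of these small ratios is relative to the scaling. The gene with the largest ratio was Dars, which charges aspartate and sits in the multisynthetase complex, the assembly that holds several cytosolic synthetases together. Dars had a normalized log2 intensity of 9.49, 8.79, 9.15 and 9.62 in mutants 1 to 4, against 9.14, 8.52, 9.01 and 9.26 in wild type animals 1 to 4. The mutant was the higher animal in 4 of 4 pairs, although the groups overlapped, and pair 2 lay below the others in both genotypes. The ratio was 0.28 (SE 0.09, n = 4 pairs; limma unadjusted p = 0.0260, adjusted p = 1.00), which is 1.21-fold with a 95% interval of 1.03 to 1.43.

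Sars, the serine enzyme, was the other gene higher in the mutant of 4 of 4 pairs. These 2 probes of 39 stand beside 4.83% of all tested probes with that pattern. Sars had 12.43, 12.37, 12.29 and 12.37 in mutants 1 to 4, against 12.38, 12.23, 12.22 and 12.26 in wild type animals 1 to 4, a ratio of 0.09 (SE 0.09) on the log2 scale. Every mutant of a pair was slightly the higher, and the groups overlapped.

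Nars, for asparagine, had 10.88, 11.33, 11.10 and 11.23 in mutants 1 to 4, against 11.19, 11.01, 10.97 and 10.85 in wild type animals 1 to 4. Pair 1 went against the other 3 pairs, and the ratio of 0.13 was close to its SE of 0.11.

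Iars and Lars, the isoleucine and leucine enzymes of the complex, had fitted ratios below 0. Iars had 11.34, 11.78, 11.99 and 12.06 in mutants 1 to 4, against 11.60, 11.85, 11.96 and 12.11 in wild type animals 1 to 4, a ratio of −0.09 (SE 0.10). Lars had 11.24, 11.55, 11.58 and 11.37 in mutants 1 to 4, against 11.53, 11.49, 11.52 and 11.53 in wild type animals 1 to 4, a ratio of −0.08 (SE 0.11). In both genes mutant 1 was the lowest of the 8 animals, and in Iars the other mutants lay within the wild type range.

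Gars and Kars, which serve both compartments, had ratios near 0. Gars had 13.93, 14.05, 13.72 and 13.85 in mutants 1 to 4, against 14.09, 13.82, 13.79 and 13.63 in wild type animals 1 to 4, a ratio of 0.06 (SE 0.09). Kars had 13.00, 13.18, 13.43 and 13.34 in mutants 1 to 4, against 13.14, 13.13, 13.33 and 13.26 in wild type animals 1 to 4, a ratio of 0.02 (SE 0.10). In both genes the genotypes overlapped, and the Kars mutants spanned a wider range than the wild type animals.

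The remaining cytosolic genes had ratios of −0.06 to 0.08, each smaller than its SE. They were Qars (−0.06) for glutamine, Mars (−0.05) for methionine, Eprs (−0.05), a single protein for glutamate and proline, and Rars (−0.03) for arginine. Farsa (0.07) and Farsb (−0.03) encode the alpha and beta subunits of the phenylalanine enzyme and had ratios of opposite sign. Hars (0.02), Cars (0.02) and Vars (0.02) charge histidine, cysteine and valine. Tars (0.05), Wars (0.05) and Aars (0.08) charge threonine, tryptophan and alanine. A further Wars probe gave −0.13.

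When the cytosolic genes were grouped by known assembly, 2 of 8 tested members of the multisynthetase complex had a ratio above 0 (median −0.05), against 10 of 11 cytosolic genes outside it (median 0.05). Grouped by catalytic fold, 3 of 9 cytosolic class I enzymes (median −0.05) and 9 of 10 cytosolic class II enzymes (median 0.06) were above 0. With median centring the 4 medians were −0.14, −0.03, −0.13 and −0.02 in the same order, so the class and complex groups kept their places relative to each other while most signs turned below 0. Both groupings split largely the same genes, since 6 of the 8 complex members were counted as class I enzymes. Eprs, which serves glutamate and proline, was counted in class I only. Among all tested named genes the median was 0.0006. These medians are descriptions of lists and were not tested.

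Several cytosolic synthetase genes are known targets of ATF4, the transcription factor of the amino acid response in mammalian cells, so their promoters were searched for its response element. The core TGATGNAA, in which N is any base, was looked for on both strands, where it reads TTNCATCA on the other, as the only motif. The windows ran from 250 bases before to 50 bases after a start site, as given by RefSeq for GRCm38.p6. It was found in 1304 of 32851 windows of all genes (3.97%), in the windows of 5 of the 13 cytosolic synthetase genes matched in that table, and in 0 of 15 windows of 14 mitochondrial genes. A match is a run of letters and no evidence of binding. A match from each of the 5 genes is shown as a stretch of 30 bases on the gene's strand, 5′ to 3′, with the match in capitals, as an example of the element in that gene. The Aars window held a further match, 112 bases before the start, that is not shown.
Aars, 9 bases after the start, chr8:111033840-111033869, + strand: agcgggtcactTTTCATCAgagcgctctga
Gars, 30 bases before the start, chr6:55037960-55037989, + strand: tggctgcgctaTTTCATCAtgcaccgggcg
Iars, 7 bases after the start, chr13:49682126-49682155, + strand: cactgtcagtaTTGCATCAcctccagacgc
Tars, 15 bases before the start, chr15:11399655-11399684, − strand: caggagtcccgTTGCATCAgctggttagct
Yars, 3 bases after the start, chr4:129189895-129189924, + strand: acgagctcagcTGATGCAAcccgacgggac

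In Yars, whose probe was too dim to test, the core lay on the gene's own strand as TGATGCAA, whereas the other stretches show it on the opposite strand. The 4 tested genes with a match (Aars, Gars, Iars and Tars) had genotype ratios of −0.09 to 0.08 with a median of 0.05. The 8 tested cytosolic genes whose windows held no match had a median of −0.004 and a highest ratio of 0.28, that of Dars. Members with and without the motif thus covered overlapping ranges.

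Among mitochondrial genes the fitted log2 ratio was below 0 in 11 of 14, with a median of −0.07 and a range of −0.17 to 0.14; with median centring it was below 0 in 12 of 14, with a median of −0.15. The smallest unadjusted p belonged to Rars2, the arginine enzyme of mitochondria. Rars2 had a normalized log2 intensity of 10.36, 10.79, 10.73 and 10.87 in mutants 1 to 4, against 10.76, 10.74, 11.02 and 10.93 in wild type animals 1 to 4. The mutant was lower in pairs 1, 3 and 4 and slightly higher in pair 2, and the groups overlapped. The ratio was −0.17 (SE 0.09; limma unadjusted p = 0.109, adjusted p = 1.00).

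Hars2, the mitochondrial histidine enzyme, was the only synthetase gene whose genotypes did not overlap and the only one lower in the mutant of 4 of 4 pairs. It had 8.94, 8.98, 8.81 and 8.91 in mutants 1 to 4, against 9.10, 9.05, 9.05 and 8.98 in wild type animals 1 to 4. The groups nearly met, at mutant 2 and wild type animal 4. The ratio was −0.14 (SE 0.09; limma unadjusted p = 0.172). Over all tested probes, 0.71% had mutants wholly below wild type animals and 5.1% were lower in the mutant of every pair.

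Iars2, for isoleucine, had 9.10, 9.40, 9.63 and 9.67 in mutants 1 to 4, against 9.47, 9.65, 9.65 and 9.65 in wild type animals 1 to 4. The mutants of male pairs 1 and 2 were low and those of pairs 3 and 4 matched their partners, with a ratio of −0.16 (SE 0.11). A further Iars2 probe gave 0.03.

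Cars2 and Aars2, the cysteine and alanine enzymes, had the largest ratios above 0 in this set. Cars2 had 9.36, 9.27, 9.53 and 9.43 in mutants 1 to 4, against 9.07, 9.30, 9.33 and 9.34 in wild type animals 1 to 4, a ratio of 0.14 (SE 0.09). Aars2 had 10.58, 10.05, 10.22 and 10.01 in mutants 1 to 4, against 10.03, 10.03, 10.18 and 10.08 in wild type animals 1 to 4, a ratio of 0.14 (SE 0.12). For Aars2 the value rests on mutant 1, as the other 7 animals lay close together.

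Yars2, whose human counterpart shares its disease with PUS1, had 9.75, 9.54, 9.52 and 9.72 in mutants 1 to 4, against 9.34, 9.69, 9.75 and 9.84 in wild type animals 1 to 4. Wild type animal 1 was the lowest of the 8 and its mutant partner among the highest, while the mutant was the lower animal in the other 3 pairs. The ratio was −0.02 (SE 0.13; limma unadjusted p = 0.876), which is 0.985-fold with a 95% interval of 0.790 to 1.23.

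The other mitochondrial genes had ratios of −0.13 to 0.04. They were Pars2 (−0.13) for proline, Wars2 (−0.09) for tryptophan, Sars2 (−0.07) for serine, Tars2 (−0.07) for threonine, Fars2 (−0.06) for phenylalanine, Lars2 (−0.06) for leucine and Vars2 (−0.03) for valine. Ears2 (0.04) charges glutamate and, in mitochondria, also the glutamine tRNA, whose product is then amidated.

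**Figure D2:**
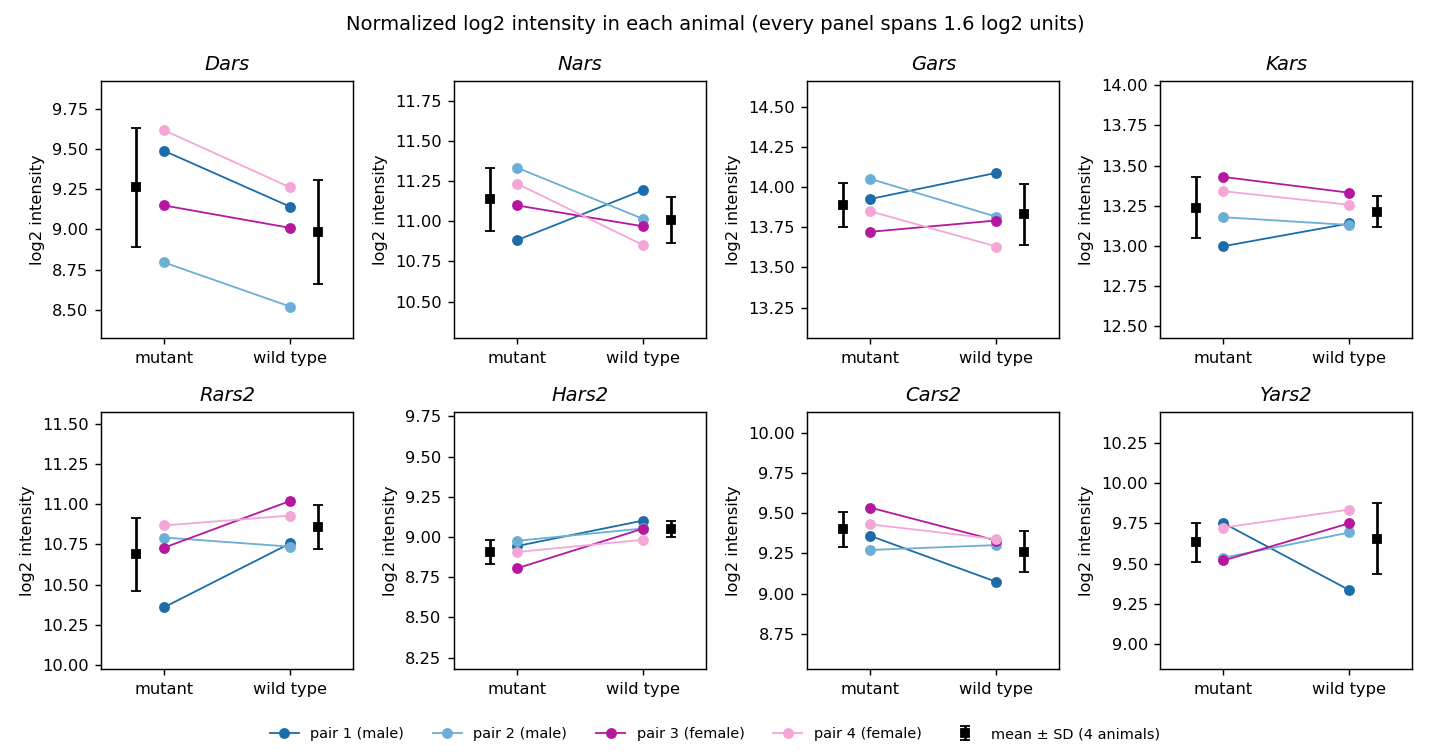
Normalized log2 intensity (y axis) of 8 synthetase genes, 1 per panel, in each mutant and wild type animal (x axis), with lines joining the animals that shared an array. For Dars all lines run higher in the mutant and for Hars2 all run lower, whereas the lines of the other genes run both ways.

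Set against each other, the cytosolic median lay 0.09 above the mitochondrial median on the log2 scale. In pairs 1 to 4 the cytosolic median ratio was −0.19, 0.05, 0.07 and 0.08, and the mitochondrial median was 0.01, −0.07, −0.17 and −0.06. The median of all tested named genes was −0.01, −0.02, 0.01 and 0.01 in the same pairs. The difference between the sets was therefore −0.20 in pair 1 and 0.12, 0.24 and 0.15 in pairs 2 to 4. Its SD over the 4 pairs was 0.19, larger than the difference itself. That SD is the spread of single pairs and not the standard error of the difference. Without pair 1 the difference was 0.18, and without pair 3 it turned to −0.04, with a cytosolic median of −0.05 and a mitochondrial median of −0.01. Both of these fits kept the dye term, so the pair left alone in its dye orientation weighed as much as the other remaining pairs together. That was pair 3 in the first fit and pair 1 in the second. A plain mean of the remaining pairs was not taken, so the change of sign holds for this weighting only.

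**Figure D3:**
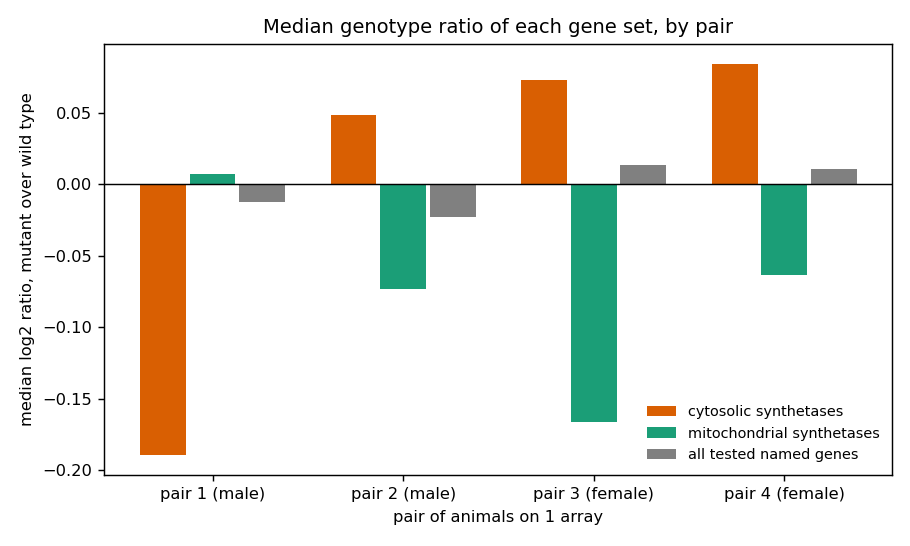
Median log2 ratio of mutant over wild type (y axis) over 19 cytosolic synthetase genes, 14 mitochondrial synthetase genes and all tested named genes, for each pair of animals (x axis). The cytosolic bar is below 0 in pair 1 and above 0 in pairs 2 to 4, and the mitochondrial bar is opposite in each pair.

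For 11 amino acids each compartment had a tested gene of its own for that amino acid alone (with Farsa standing for phenylalanine). Eprs, which serves glutamate and proline, was left out of this count; its ratio was −0.05, beside 0.04 for Ears2 and −0.13 for Pars2. The cytosolic gene had the larger fitted ratio in 8 of the 11, with a median difference of 0.12. In none of the 11 did it do so in all 4 pairs, nor did the mitochondrial gene. Sars against Sars2 (0.17) and Hars against Hars2 (0.16) gave the widest differences with the cytosolic gene above. Cars against Cars2 (−0.12) gave the widest with the mitochondrial gene above.

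Markers of other cell types differed between the pairs as well. In pair 1 all 10 fibroblast markers were above 0 (median log2 ratio 1.32), as were 8 of 9 adipocyte markers (1.46) and 7 of 7 macrophage markers (0.89). The medians in pairs 2 to 4 were −0.44, 0.15 and 0.44 for fibroblast, −0.47, 0.30 and 0.06 for adipocyte and −0.31, −0.15 and 0.38 for macrophage markers. Summed fibroblast intensity was 40698 to 58046 units in mutants and 30982 to 53338 units in wild type animals. Summed adipocyte intensity was 21477 to 35833 units in mutants and 19897 to 36425 units in wild type animals, and summed macrophage intensity was 2205 to 4233 units in mutants and 2068 to 2714 units in wild type animals. Erythroid markers, of which 7 of 10 were tested, all had fitted ratios above 0 (median 0.60), with pair medians of 0.76, −0.64, 0.90 and 1.47 in pairs 1 to 4 and summed intensities of 82372 to 374203 units in mutants and of 40632 to 156473 units in wild type animals. Schwann cell markers had pair medians of 0.08, 0.07, 0.73 and −0.27, and endothelial markers of −0.13, 0.11, 0.10 and −0.06. Lep, Cd68, Cd163 and Ptprc were among the markers too dim to test. Slow fibre markers had medians of −1.72, 1.14, −1.28 and −2.73 in pairs 1 to 4. Their part in the synthetase ratios was not tested.

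Genes around the synthetases were examined from fixed lists, and none of their probes passed the adjusted threshold. The 3 scaffolds of the multisynthetase complex all had ratios above 0, with a median of 0.18. Aimp2 had a ratio of 0.53 (SE 0.10; limma unadjusted p = 0.00234, adjusted p = 0.990), with pair ratios of 0.73, 0.08, 0.88 and 0.43. It lies on chromosome 5, the chromosome of Pus1, and the part of that position in the ratio was not tested. The Aimp2 probe was bright, with a mean log2 intensity of 16.35 in mutants and 15.82 in wild type animals, against 12.79 and 12.72 for Aimp1. Whether that probe reads Aimp2 alone was not tested. The other scaffolds, Eef1e1 (0.18, SE 0.14) and Aimp1 (0.06, SE 0.09), lie elsewhere and had smaller ratios.

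Among 6 genes of tRNA proofreading and recycling, 2 were above 0 (median −0.03). Ptrhd1 (0.14) was above 0, and Dtd1 (−0.07), which removes D-amino acids from tRNA, was below it. Of 4 partners of mitochondrial charging, 1 was above 0 (median −0.02). Qrsl1 (−0.11) and Gatc (0.07) encode subunits of the amidotransferase that completes mitochondrial glutamine charging, and Mtfmt (−0.03) formylates the initiator methionine. Of the selenocysteine genes 3 of 4 were tested (median 0.02), and Pstk (0.14), the kinase of that route, had the smallest p.

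Of 6 cytosolic elongation factors, 4 were above 0 (median 0.06), and Eef1a2 (0.16, SE 0.12), the muscle form of the factor that carries charged tRNA to the ribosome, had the smallest p. Of 8 mitochondrial translation factors, 6 were below 0 (median −0.09), among them Gfm1 (−0.17, SE 0.09), an elongation factor, Mtrf1 (−0.16, SE 0.09), a release factor, and Gfm2 (−0.13, SE 0.09), a ribosome recycling factor. None of these 14 genes passed an unadjusted p of 0.05.

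Uncharged tRNA is sensed by GCN2, the kinase encoded by Eif2ak4, which phosphorylates eIF2 and so raises translation of ATF4. Of 9 listed genes, which take in the other eIF2 kinases as well as this arm, 5 were above 0 and 4 below (median 0.005). Eif2ak4 was lower in the mutant of 4 of 4 pairs (−0.17, −0.12, −0.25 and −0.18), with a ratio of −0.18 (SE 0.09; limma unadjusted p = 0.0968, adjusted p = 1.00). Atf4 mRNA had a ratio of 0.15 (SE 0.10), and Eif2s1, the eIF2 subunit that is phosphorylated, one of 0.14 (SE 0.12). Of 22 ATF4 targets outside the synthetases 19 were tested; 14 were above 0 and 5 below, with a median of 0.07. Psph (0.48, SE 0.10) and Psat1 (0.33, SE 0.10), enzymes of serine synthesis, and the transcription factor Atf5 (0.34, SE 0.10) had the smallest p. Psph lies on chromosome 5. Psat1 was dim, with a mean log2 intensity of 7.29 in mutants and 6.96 in wild type animals. Atf5 had pair ratios of 0.15, 0.68, −0.08 and 0.63 in pairs 1 to 4.

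Sex was compared between arrays, since each array held animals of 1 sex (2 arrays of each), with females minus males over 4 animals of each sex and both genotypes. With 2 arrays of each sex, differences between arrays and between the sexes cannot be fully told apart. The 4 animals of a sex shared arrays and are not 4 independent units. No synthetase probe passed the adjusted threshold (0 of 39), against 1.38% of all tested probes. At an unadjusted p under 0.05, 6 of 39 passed (15.4%), beside 22.9% of all tested probes. The fitted difference was above 0 in 24 of 33 genes (median 0.11), whereas 44.7% of all tested probes were above 0, and the median over all tested named genes was −0.04. All 8 complex members (median 0.23) and 16 of 17 class I enzymes of both compartments (Eprs included, median 0.23) were above 0. These counts were seen in the data and were not tested.

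Pars2, for mitochondrial proline, had the largest sex difference and the smallest p. Its normalized log2 intensity in females was 8.40 and 8.45 in the mutants and 8.82 and 8.51 in the wild type animals. In males it was 9.15 and 9.03 in the mutants and 9.12 and 9.10 in the wild type animals. Every female was below every male, with means of 8.55 ± 0.19 in females and 9.10 ± 0.05 in males (SD, n = 4 each). The difference of −0.55 (SE 0.12; limma adjusted p = 0.0671) is 0.681-fold, with a 95% interval of 0.562 to 0.826. A further Pars2 probe was too dim to test.

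Iars went the other way, with 12.03 ± 0.07 in females and 11.64 ± 0.23 in males (SD, n = 4 each; difference 0.39, SE 0.14, limma adjusted p = 0.153). Females were also above males, without overlap, in Wars2 (0.41), Lars2 (0.29), Vars (0.26), Rars (0.25) and Kars (0.23). Together with Pars2, the sexes did not overlap in 7 of 33 genes, while 17.3% of all tested probes had that pattern. Gars had 13.75 ± 0.09 in females and 13.97 ± 0.12 in males (SD, n = 4 each), a difference of −0.22, and the sexes overlapped.

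**Figure D4:**
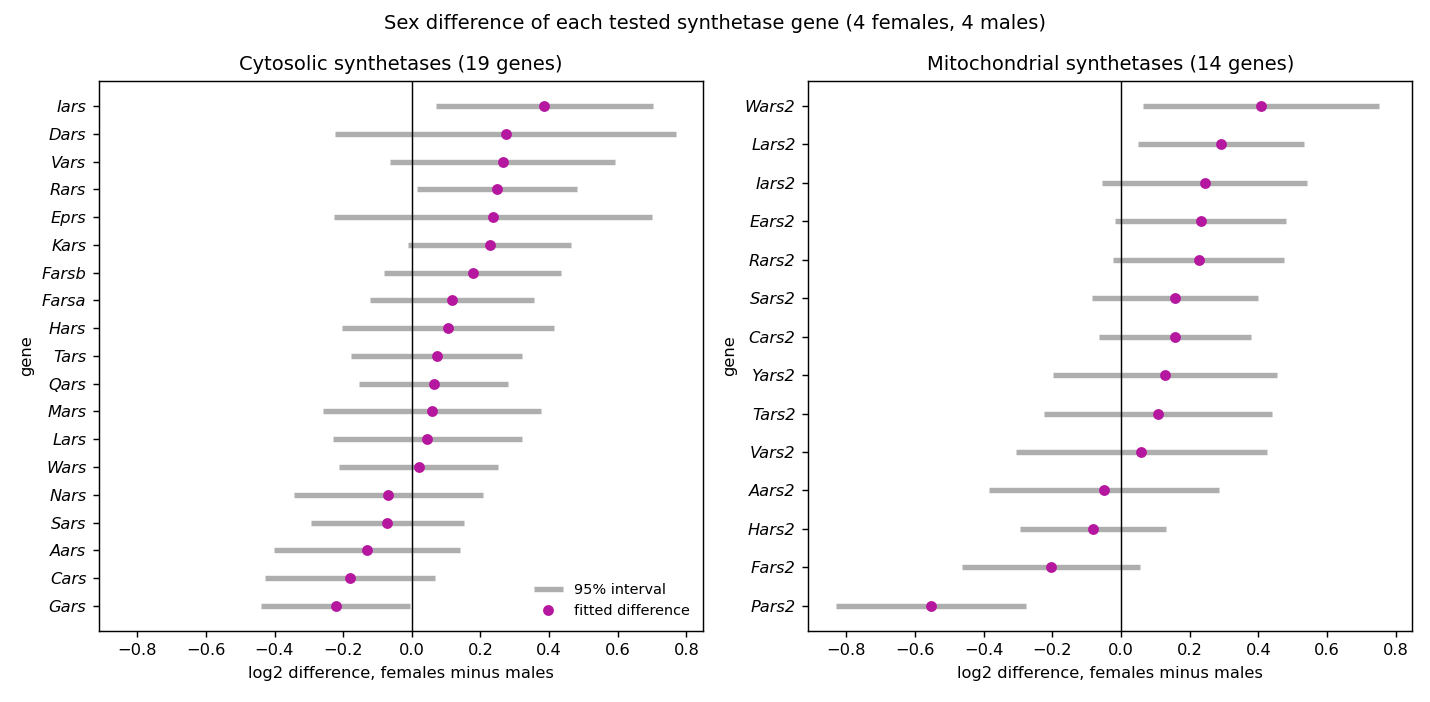
Fitted log2 difference of females minus males (x axis; 4 animals of each sex) with its 95% interval for each tested cytosolic and mitochondrial synthetase gene (y axis). Pars2 lies farthest from 0, at −0.55, and Iars and Wars2 lie farthest in the other direction, at 0.39 and 0.41.

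Whether the genotype ratio differed between the sexes was tested with an interaction term, and no synthetase probe passed it (0 of 39, against 0% of all tested probes). In this fit none passed an unadjusted p of 0.05, beside 2.19% of all tested probes. Eprs had the smallest p, with 10.12, 10.39, 10.99 and 10.62 in mutants 1 to 4, against 10.69, 10.55, 10.43 and 10.65 in wild type animals 1 to 4. The mutant was lower in both male pairs and higher only in female pair 3, and the ratio averaged 0.27 in female pairs and −0.37 in male pairs (difference 0.63, SE 0.30, limma unadjusted p = 0.0846). With median centring the Eprs difference was 0.82 (limma unadjusted p = 0.0231), and with no filter on dim probes its unadjusted p was 0.0265, while its adjusted p remained at 1.00 in both. Mars had 9.51, 9.76, 9.85 and 9.97 in mutants 1 to 4, against 9.87, 9.93, 9.80 and 9.69 in wild type animals 1 to 4. Its mutants were the lower animals in both male pairs and the higher in both female pairs (0.17 in female and −0.27 in male pairs, difference 0.43, SE 0.22). With 2 pairs of each sex, the median standard error of this term was 0.23 for the synthetase genes.

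The synthetase genes differed in how much their levels varied between animals. The SD over the 8 animals, after the mean of each dye was removed, had a median of 0.14 over cytosolic genes and of 0.19 over mitochondrial genes, against 0.19 over all tested named genes. Qars (0.06), Wars (0.07) and Sars (0.08) varied least. Dars (0.38), Pars2 (0.35), Wars2 (0.30), Iars (0.28) and Eprs (0.27) varied most. Differences between the sexes and between the genotypes were left in this SD. Pars2, Wars2 and Iars were also the genes with the largest fitted sex differences. The same Dars probe thus had both the largest genotype ratio and the largest spread. That spread is of levels without regard to pairs, and pair 2 was low in both genotypes. Its genotype ratio, taken within arrays, had an SE of 0.09, beside a median SE of 0.10 over the tested synthetase genes.

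Across the 8 animals the members of a set followed one another only weakly, as a description without a test, since same-numbered animals share an array. The median Pearson correlation was 0.18 over the 171 pairs of cytosolic genes, 0.16 over the 91 pairs of mitochondrial genes and 0.06 over the 266 pairs across the sets. Cytosolic and mitochondrial genes correlated with all other tested probes at a median of −0.01 and −0.03. Eprs (0.45) and Kars (0.43) had the highest median correlation with the other cytosolic genes, and Gars (−0.32), Sars (−0.31) and Cars (−0.27) the lowest. For these correlations the dye mean of each probe was removed, while differences between the sexes and genotypes were left in. The part of sex in them was not tested.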

How the data were processed

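Total RNA of each of 8 animals (200 ng) was labelled with Cy3 or Cy5 and hybridised in pairs on 4 Agilent arrays. The deposited scanner files hold intensity values from Agilent Feature Extraction 10.7.3.1, named in the submitters' processing notes; per the file headers these are median spot and local background signals without subtraction, and processed intensity values that were background-subtracted and dye-normalized within arrays. Further deposited columns hold other values, coded 0 or 1 for each spot, which per the file headers say whether it was well above background, saturated or an outlier. The authors' deposited table holds log2 values centred per probe; how it was normalized is not stated in the labels or headers, so it served as an alternative. Files held 0 columns from outside the series.

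Each array had 62976 spots, 3671 of them controls, and 55681 probes, of which 55591 had a value on all arrays. Probes were named through unversioned RefSeq accessions in a gene table of GRCm38.p6 (27656 probes, 20972 genes). For the probes it served for names and chromosomes only, because the file headers name mm9. The promoter windows and stretches were also taken from GRCm38.p6. The synthetases, the related lists and the markers were chosen with earlier results of these data known.

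Background was corrected with normexp (offset 50), ratios were normalized by loess within arrays with control and outlier spots at weight 0, and spots of a probe were averaged. Probes well above background in at least 4 of 8 animals were fitted with limma 3.58.1 in R 4.3.3, using lmFit, eBayes and a dye term per probe, and p-values were adjusted by Benjamini-Hochberg over all tested probes. For the difference between sexes, lmscFit was run on the separate channels (Aquantile, intraspot correlation 0.187) with terms for genotype and dye. The brightest tested probe stood for a gene. Levels of each animal are printed for the 5 genes of each set with the smallest unadjusted genotype p, for Yars2, Gars and Kars, and for the 2 genes with the smallest p in the sex and the interaction fits, with Iars and Gars given by group where they recur; of each related list at most 3 genes are named, those with the smallest p. A few items that these rules would name are not reported here. SE is the moderated standard error, and pair ratios carry no dye correction. Tables were summarised in Python 3.11.15 with pandas 2.3.3 and numpy 2.4.6.

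Both animals of a pair shared an array, so the pairing is physical, and taking the ratio on the array makes it the block. Across probes, the deviations of the partners of pairs 1 to 4 from their group means correlated at 0.66, 0.28, 0.06 and 0.64. Tested on simulated data with 23098 probes, the genotype fit recovered 26.9% of log2 changes of 0.5 and 98.5% of changes of 1. The sex fit recovered 8.96% and 83.6%. The simulated noise was normal, independent between probes and drawn from the moderated variances, so these shares need not hold for the arrays themselves. In the real data the Pus1 probe, with a log2 ratio of −1.46, had a limma adjusted p of 0.0786. The number of arrays limits the precision.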

Additional observations from a re-analysis of the deposited data

Results flagged for a closer look

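In 3 of 66 groups of 4 animals, 1 per tested synthetase gene and genotype, 1 animal lay far from the other 3 by Dixon's test, and chance flags about 1 in 20 such groups. For Hars, mutant animal 3 had a normalized log2 intensity of 9.58, while the other mutants lay between 9.32 and 9.36. For Cars2, wild type animal 1 had 9.07, while the other wild type animals lay between 9.30 and 9.34. For Iars2, wild type animal 1 had 9.47, while the other wild type animals all lay at 9.65.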

How the results depend on the processing

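No synthetase probe was called for genotype under any of the alternatives run, the lowest adjusted p of any member being 0.205, without pair 3. Median centring in place of loess moved the median genotype ratio of all probes to −0.06 and that of the sex by genotype term to 0.17; the mitochondrial median was then −0.15, and 10 small ratios changed sign: Aars −0.00426, Cars −0.0648, Farsa −0.0115, Gars −0.0329, Hars −0.0514, Kars −0.0696, Tars −0.0344, Vars −0.0671, Wars −0.0293 and Ears2 −0.0326. The single synthetase probe under an unadjusted p of 0.05 (Dars) became 0 with median centring, with no replicate block and in separate channels with the replicate block, and 0 to 3 with a pair left out. Over all probes, genotype calls were 0 in the fit reported, 23 with median centring, 5 with no filter on dim probes, 2 with no dye term, 3 with no replicate block, 4 in separate channels with the replicate block, and 0 to 245 with a pair left out, the highest without pair 3; interaction calls were 22 with median centring and 38 with no filter. Sex calls over all probes, 319 in the fit reported, were 728 with median centring, 179 with the processed signals, 180 in the authors' deposited table, 554 with no filter, 850 with no replicate block and 16 to 247 with a pair left out. Synthetase probes called for sex became 1, Pars2, with median centring (adjusted p = 0.0474) and with no replicate block (0.0397). With a pair left out, 16 of 33 genotype ratios changed sign, with these lowest and highest values: Eprs −0.334 and 0.233, Farsb −0.110 and 0.0480, Lars −0.171 and 0.00312, Mars −0.163 and 0.0618, Ears2 −0.0232 and 0.101, Wars2 −0.199 and 0.0183, Hars −0.0667 and 0.110, Tars −0.0415 and 0.141, Aars −0.0354 and 0.194, Cars −0.0591 and 0.0915, Kars −0.0376 and 0.0824, Vars −0.127 and 0.163, Fars2 −0.138 and 0.0137, Vars2 −0.0634 and 0.00342, Yars2 −0.183 and 0.141, and Wars −0.00335 and 0.113. Of each of these changes, the cause was not tested. Genotype fits without a pair kept the dye term, so the pair left alone in its dye orientation weighed as much as the other remaining pairs together. The interaction could not be fitted with a pair left out, as no residual degrees of freedom remain, and the sex fits without a pair kept the intraspot correlation of all 4 arrays.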
